A study of Mus musculus with 12 samples.

Results

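The genes considered here are Tnf, Lta and Ltb, which lie side by side and encode the cytokines tumour necrosis factor, lymphotoxin alpha and lymphotoxin beta, together with Nfkb1, Nfkb2, Rel, Rela and Relb, which encode the subunits of the transcription factor NF-kB, and Nfkbia and Tnfaip3, which encode an inhibitor and a feedback enzyme of that pathway. ATAC-seq reads out how open chromatin is: a transposase, Tn5, cuts accessible DNA and adds sequencing adapters there, so a stretch with more reads was more accessible. The members are the regions of the deposited count table that overlap the span of one of these 10 genes or its flanks of 5 kb at each end, on the mouse build mm10. There were 75 such regions among 117835. The 3 cytokine genes share regions, so they were treated as 1 locus, which gave 8 loci: 6 regions at Tnf/Lta/Ltb, 30 at Nfkb1, 6 at Nfkb2, 13 at Rel, 4 at Rela, 4 at Relb, 4 at Nfkbia and 8 at Tnfaip3. Within a locus the regions are numbered in the order of their coordinates. Of the 75 regions, 55 overlapped a gene span and 20 lay only in the flanks. The annotation used here gives gene spans, so regions inside a gene are not divided into exonic and intronic.

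The libraries came from FACS-sorted macrophages of mouse brain tumours of the genotype Ink4a/ArfKO, PDGFB, which all groups share, with 3 libraries in each of 4 groups. The groups are lipid-laden microglia (LL-MG), lipid-laden monocyte-derived macrophages (LL-MDM), microglia (MG) and monocyte-derived macrophages (MDM). Microglia are the resident macrophages of the brain, monocyte-derived macrophages enter it from the blood, and lipid-laden cells are those loaded with lipid. The labels used here give no age and no tumour-free tissue. The library names and the sample titles disagree about the group for 8 of the 12 samples. Every group below is the one in the library name. With the titles' groups edgeR called 0 of the 75 regions between MG and MDM, with 0 at an unadjusted p under 0.05. It called 0 of all 77737 regions in that fit, so the count says nothing about the members in particular. No label ties a library to 1 animal beyond doubt, so a p-value here is set against differences among libraries that could be technical in part. The titles also carry mouse numbers, which can be read in more than 1 way. Read sample by sample, the 4 libraries of mouse 547 are all without lipid load and the 4 of mouse 545 all lipid-laden. The 4 of mouse 546 are then 2 of each kind. Lipid load and mouse can then largely not be told apart, while MG and MDM, and LL-MG and LL-MDM, come from the same mice. However, the titles in sample order run through MDM, LL-MDM, MG and LL-MG for each mouse in turn. The library names, in the order of their numbers, run through the same groups. If the titles belong to the library numbers, titles and names agree, and each mouse gave 1 library of each group. Lipid load and mouse could then be told apart. Which reading holds was not tested.

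NF-kB proteins form dimers that are held in the cytoplasm by IkB inhibitors, of which Nfkbia encodes IkB alpha. Signals such as tumour necrosis factor or bacterial products activate the IkB kinase, the inhibitor is degraded, and the dimers enter the nucleus and bind kappaB motifs at target genes, among them Tnf, Nfkbia and Tnfaip3 themselves. In macrophages this pathway drives the inflammatory response, and Nfkbia and Tnfaip3 are its best known brakes.

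The promoter sequences of 8 of the 10 genes were in RefSeq's table for GRCm38.p6, the build also known as mm10; Nfkb1 and Relb had no entry. Of the 250 bases before each of 32851 transcription starts, 7.25% held a kappaB motif on either strand and 7.59% held TATAAA on the gene's strand. A kappaB match was found before a start of Ltb, Nfkb2, Rel, Nfkbia and Tnfaip3, and none before those of Tnf, Lta and Rela within this window. TATAAA was found at Tnf, Lta and the upstream start of Tnfaip3. The sequences below are those of the start that turned out to differ most between the cell types (Tnf) and of 3 starts with kappaB matches (Nfkb2, Nfkbia and Tnfaip3), each of them lying wholly inside an accessible region. Capitals mark kappaB matches, or TATAAA. At Nfkb2 the first run of capitals holds a pair of overlapping kappaB matches. At Tnfaip3 the capitals mark matches of both kinds. A match is a run of letters and was not tested for binding.
Tnf (chr17:35202008-35202257, minus strand): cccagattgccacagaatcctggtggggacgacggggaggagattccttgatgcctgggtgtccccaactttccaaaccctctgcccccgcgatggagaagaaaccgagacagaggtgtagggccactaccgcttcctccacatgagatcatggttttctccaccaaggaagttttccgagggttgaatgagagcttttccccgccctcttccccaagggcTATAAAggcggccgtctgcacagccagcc
Nfkb2 (chr19:46304487-46304736, plus strand): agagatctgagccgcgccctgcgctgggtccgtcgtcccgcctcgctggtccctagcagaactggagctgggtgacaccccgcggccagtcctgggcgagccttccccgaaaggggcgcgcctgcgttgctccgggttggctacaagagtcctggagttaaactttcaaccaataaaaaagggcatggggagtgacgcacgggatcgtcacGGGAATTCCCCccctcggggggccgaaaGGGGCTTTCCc
Nfkbia (chr12:55492648-55492897, minus strand): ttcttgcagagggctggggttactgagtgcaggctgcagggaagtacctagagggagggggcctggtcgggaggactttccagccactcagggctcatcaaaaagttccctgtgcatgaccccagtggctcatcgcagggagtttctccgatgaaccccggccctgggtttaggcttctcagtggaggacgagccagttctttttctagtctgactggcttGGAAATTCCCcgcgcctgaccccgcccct
Tnfaip3 (chr10:19015411-19015660, minus strand): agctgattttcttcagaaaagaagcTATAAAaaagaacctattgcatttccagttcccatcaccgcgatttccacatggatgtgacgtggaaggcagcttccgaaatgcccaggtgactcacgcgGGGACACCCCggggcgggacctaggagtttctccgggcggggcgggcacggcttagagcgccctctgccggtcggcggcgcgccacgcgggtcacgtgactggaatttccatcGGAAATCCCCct

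Library totals ran from 1162969 counts in LL-MDM 1 to 18938222 in MDM 2. Levels are CPM, a region's share of its library's counts multiplied up to a fixed total, after scaling by edgeR's trimmed mean of M values. All 75 regions passed the filter on low counts. Summed over 8 microglial marker genes, the level was 579 to 638 CPM in LL-MG, 353 to 376 in LL-MDM, 375 to 591 in MG and 305 to 331 in MDM. Over 8 monocyte-derived macrophage markers it was 341 to 372 CPM in LL-MG, 531 to 567 in LL-MDM, 299 to 378 in MG and 576 to 650 in MDM. The MG libraries stood apart from each other. MG 1 had 591 CPM over the microglial markers, MG 2 had 375 and MG 3 had 470. Over the monocyte-derived macrophage markers MG 1 had 299 CPM, MG 2 had 378 and MG 3 had 355. The genes of that list did not move together. Ccr2 was at 9.86 CPM in MG 1, 40.6 in MG 2 and 27.1 in MG 3, against 21.8 to 26.3 in MDM. Lyz2 was at 22.8, 11.4 and 13.5 CPM in the same MG libraries, against 16.3 to 18.8 in MDM. Itga4 was at 38.4, 48.5 and 38.9 CPM, against 107 to 132 in MDM. Comparisons with MG were therefore also fitted without MG 2 and MG 3, which leaves MG with 1 library whose spread is taken from the other groups.

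Between MG and MDM, edgeR called 45 of the 75 regions at an adjusted p under 0.05, 23 higher and 22 lower in MG, against 51.7% of the 77737 regions tested (26.8% higher, 24.9% lower). Without MG 2 and MG 3, 36 of the 42 of these that could still be tested kept their direction and 15 stayed past the threshold, with 36.7% of all regions called in that fit. Between LL-MG and LL-MDM edgeR called 8 regions, 4 in each direction, against a background of 21.5% (10.3% higher, 11.2% lower). In LL-MDM against MDM 19 were called, 11 higher and 8 lower, against 29.5% of all regions (15.4% higher, 14.1% lower). In LL-MG against MG 10 were called, 4 higher and 6 lower, against 12.2% (4.21% higher, 8.01% lower), and without MG 2 and MG 3 there were 0, with 7 at an unadjusted p under 0.05. In that last fit, with 1 MG library, only 42 of all 80227 regions were called (0.0524%), so the 0 says little about the members. The members' counts lay near the shares of all regions, and between LL-MG and LL-MDM below them, so they are no result about the loci as a set; the values of single regions follow. In all, 55 regions were called in at least 1 of these 4 comparisons. Leaving out 1 library moved the smaller counts by over 1.5 times. The 8 became 4 without LL-MG 1 or LL-MDM 3 and 5 without LL-MG 2. The 19 became 8 without LL-MDM 2, 11 without MDM 1 and 12 without MDM 2. The 10 became 2 to 5 without any 1 LL-MG library, MG 2 or MG 3, and 20 without MG 1.

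**Figure D1:**
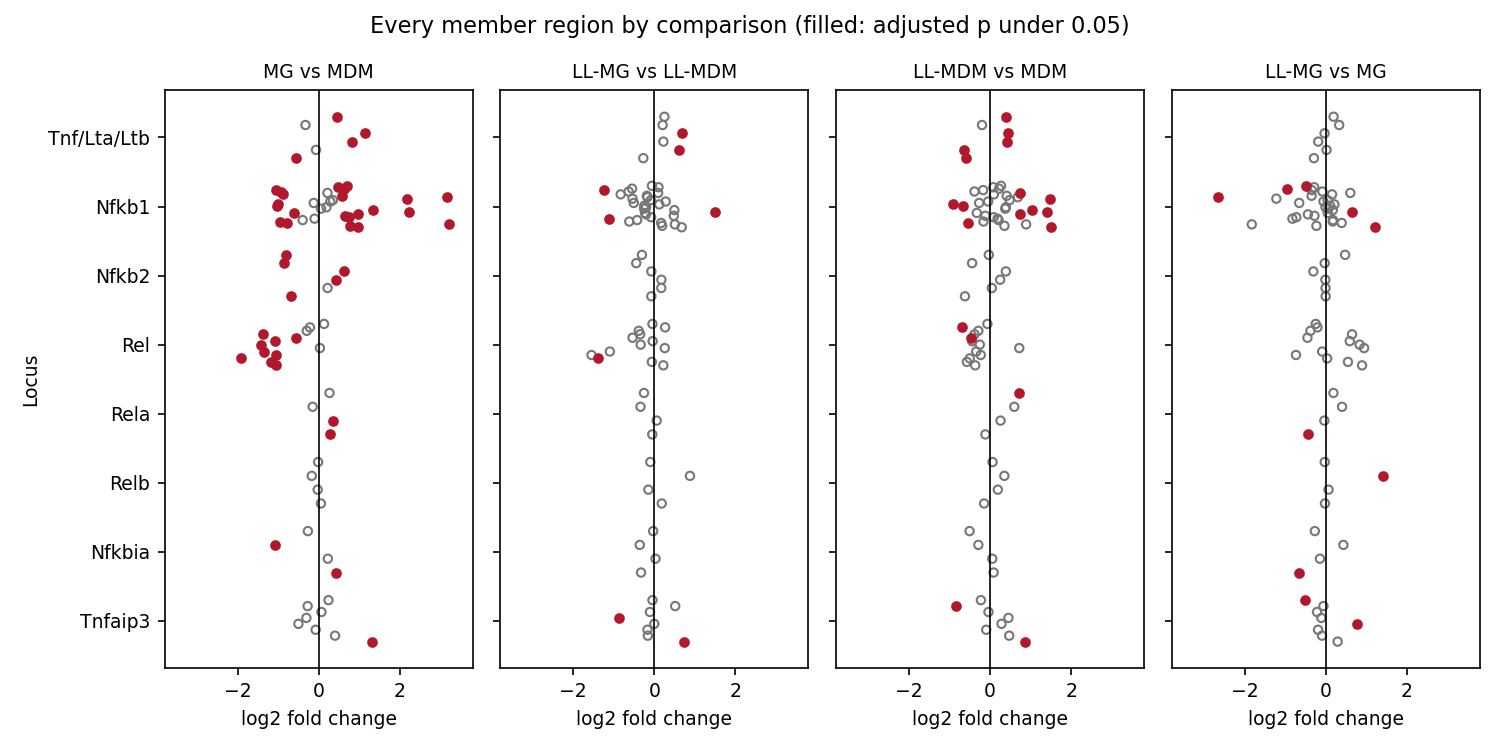
Log2 fold change of each of the 75 regions (x axis) by locus (y axis, region 1 lowest within a locus) in 4 comparisons, the group named first over the second. Filled points passed an adjusted p under 0.05 in edgeR. All 9 filled points of Rel in MG against MDM lie left of 0, and those of Tnf/Lta/Ltb include 3 right of 0 and 1 left of it.

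The locus with the clearest difference between the lineages was Tnf/Lta/Ltb. Summed over its 6 regions, accessibility was 300, 255 and 254 CPM in the LL-MG libraries and 198, 205 and 184 in LL-MDM. It was 261, 239 and 227 CPM in MG and 173, 162 and 193 in MDM. Every microglial library lay above every monocyte-derived one, and within a lineage the lipid-laden and the other libraries overlapped. The log2 fold change was 0.46 ± 0.09 (SE) in MG over MDM (edgeR adjusted p = 1.89e-04) and 0.46 ± 0.09 in LL-MG over LL-MDM (edgeR adjusted p = 0.00115). Both held under each of 24 alternatives that kept the groups by library name, between 0.30 and 0.62 for MG over MDM. In the bulk libraries of sorted cells, more open chromatin per cell and a larger share of cells with open chromatin cannot be told apart. The locus sum did not pass the test in LL-MDM against MDM (0.16 ± 0.09, edgeR adjusted p = 0.215) or in LL-MG against MG (0.16 ± 0.09, edgeR adjusted p = 0.225). The 3 genes were also taken as gene loci of their own, which share regions. The Lta locus was higher in LL-MDM than in MDM (0.37 ± 0.09, edgeR adjusted p = 0.00652). No region lies inside Lta: its locus is regions 3 and 4 in Tnf, region 5 between the genes and region 6 upstream. The Tnf (0.13) and Ltb (0.10) loci, which both take in region 2 in Ltb, did not pass. These sums therefore do not separate Lta from Tnf.

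**Figure D2:**
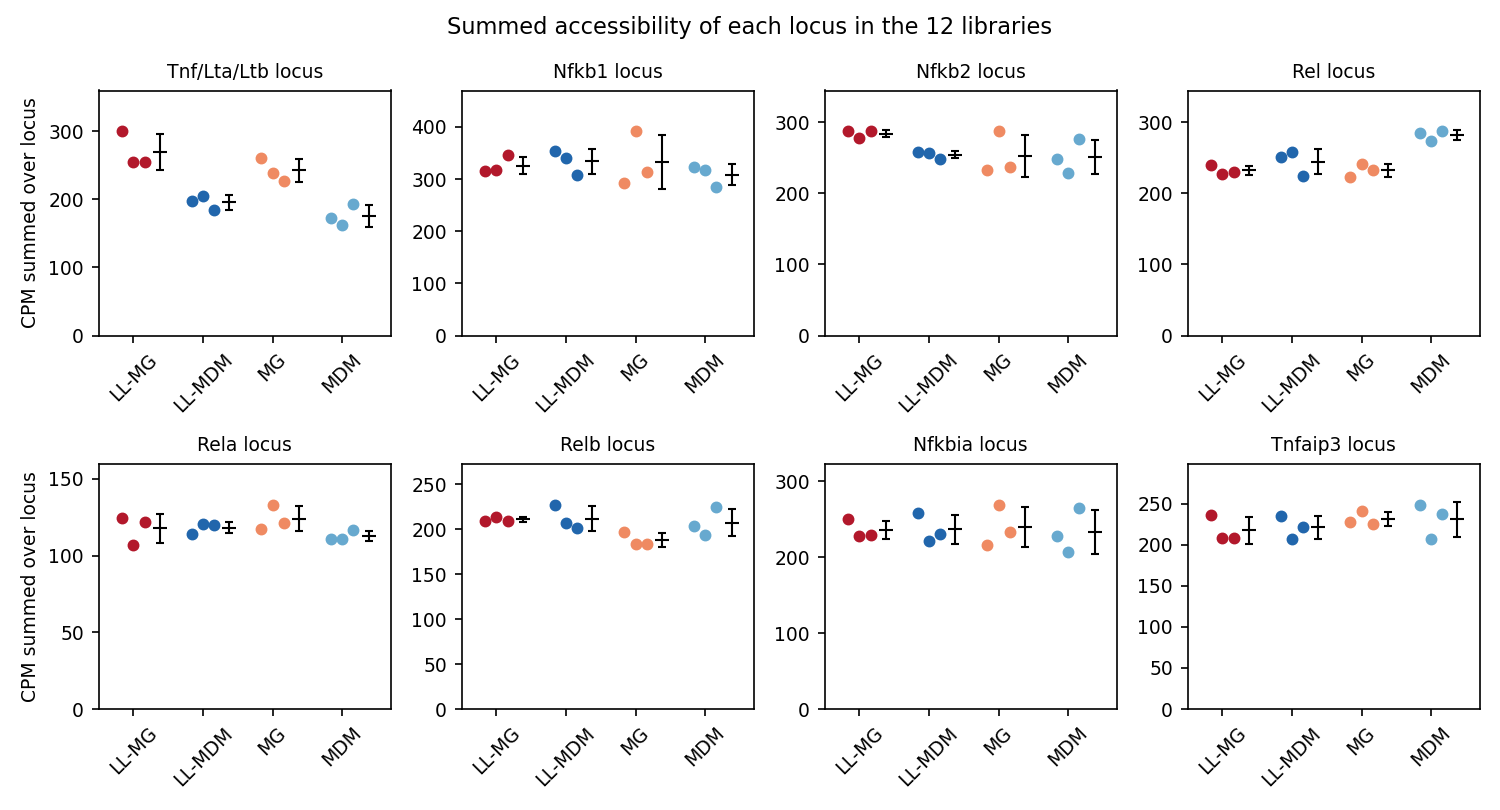
Accessibility summed over the regions of each of the 8 loci (y axis, CPM from 0) in the LL-MG, LL-MDM, MG and MDM libraries (points, 3 per group), with the mean ± SD in black beside them. At Tnf/Lta/Ltb the microglial groups lie above the monocyte-derived ones, and at Rel the MDM libraries lie above the others.

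Region 4 (chr17:35201132-35202290) holds the Tnf transcription start and the whole of the Tnf promoter shown above, and it carried most of this difference. It had 128, 93.6 and 92.2 CPM in LL-MG, 70.0, 66.2 and 61.3 in LL-MDM, 106, 116 and 96.3 in MG and 46.8, 44.3 and 55.2 in MDM. The order was thus MG and LL-MG, which overlap, then LL-MDM, then MDM, and neither lineage overlapped the other. MG exceeded MDM by 1.14 ± 0.13 on the log2 scale (edgeR adjusted p = 3.77e-09), with 0.97 to 1.21 over 21 alternatives, the one without MG 2 and MG 3 among them. LL-MG exceeded LL-MDM by 0.68 ± 0.14 (edgeR adjusted p = 4.34e-04). Among the 10518 promoter regions tested, 7.29% had a larger log2 fold change in MG over MDM and 7.52% in LL-MG over LL-MDM, so many other promoters differed by as much. The region made up 37.1% of the locus's CPM in LL-MG, 31.2% in LL-MDM, 37.5% in MG and 25.9% in MDM.

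The Tnf start was also more accessible in LL-MDM than in MDM, by 0.43 ± 0.13 (edgeR adjusted p = 0.0124); it fell short of the threshold without LL-MDM 1, LL-MDM 2, MDM 1 or MDM 2 and after thinning to the smallest library, with 0.33 to 0.66 over 21 alternatives. LL-MG and MG gave a difference of -0.03 ± 0.13 (edgeR adjusted p = 0.922), which changed sign under several scalings. The change with lipid load in microglia minus that in monocyte-derived cells was -0.46 ± 0.19 and did not pass the test (edgeR adjusted p = 0.102). Beside this result, 3 of the 8 microglial marker genes were called higher in LL-MDM than in MDM and 0 lower. The higher sum in LL-MDM came mostly from Tmem119, at 66.4 to 77.9 CPM in LL-MDM and 27.4 to 34.1 in MDM, a level above that of both microglial groups, and Sall1 was at 5.94 to 11.5 CPM in LL-MDM and 0.47 to 1.02 in MDM. P2ry12 (38.5 to 47.8 CPM in LL-MDM, 39.0 to 50.8 in MDM) and Cx3cr1 (124 to 142 in LL-MDM, 131 to 144 in MDM) overlapped. Whether other cells in the LL-MDM gate contribute to the Tnf start was not tested.

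The other regions of the locus did not move as 1 block. Region 3, in the body of Tnf (chr17:35200472-35200844), had 67.9, 51.7 and 66.0 CPM in LL-MG, 49.6, 56.1 and 51.7 in LL-MDM, 57.5, 84.6 and 67.1 in MG and 38.6, 36.8 and 45.6 in MDM. It was higher in MG than in MDM (0.82 ± 0.13, edgeR adjusted p = 4.04e-06; 0.53 without MG 2 and MG 3) and did not pass the test between LL-MG and LL-MDM (0.22 ± 0.15). Region 6, upstream of Lta and inside none of the 3 genes (chr17:35209880-35210562), was higher in MG than in MDM (0.45 ± 0.13; not past the threshold without MDM 2 or after thinning) and in LL-MDM than in MDM (0.39 ± 0.14; not past it under 9 of 21 alternatives). Region 2, inside Ltb (chr17:35195349-35195920), behaved otherwise: it had 37.1, 40.9 and 36.3 CPM in LL-MG, 22.2, 27.0 and 23.6 in LL-MDM, 38.2, 41.0 and 32.9 in MG and 39.1, 36.9 and 42.2 in MDM. Only the LL-MDM libraries stood below the rest, none of them overlapping any other library. LL-MDM was lower than MDM by 0.65 on the log2 scale (log2 fold change -0.65 ± 0.14, edgeR adjusted p = 5.23e-04; -0.72 and 0.0661 with the mouse numbers as a block), and LL-MG higher than LL-MDM by 0.60 ± 0.15 (edgeR adjusted p = 0.00435). So within the same locus, in LL-MDM the region at the Tnf start rose and the region in Ltb fell relative to MDM. Ltb is expressed chiefly by lymphocytes. Over 9 T and NK cell genes the summed level was 165 to 200 CPM in LL-MG and 172 to 193 in LL-MDM. It was 187 to 205 CPM in MG and 210 to 219 in MDM. Over 7 B cell genes the sum was 137 to 155 CPM in LL-MDM and 146 to 151 in MDM, which overlap. The part of such cells in region 2 was not tested. Region 1 beside Ltb was lower in MG than in MDM (-0.57 ± 0.21; not past the threshold with no filter on low counts, without MG 3, without MDM 3, or without MG 2 and MG 3), and region 5, between Tnf and Lta, passed no test. No deposited region overlapped the promoter windows of Lta and Ltb.

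**Figure D3:**
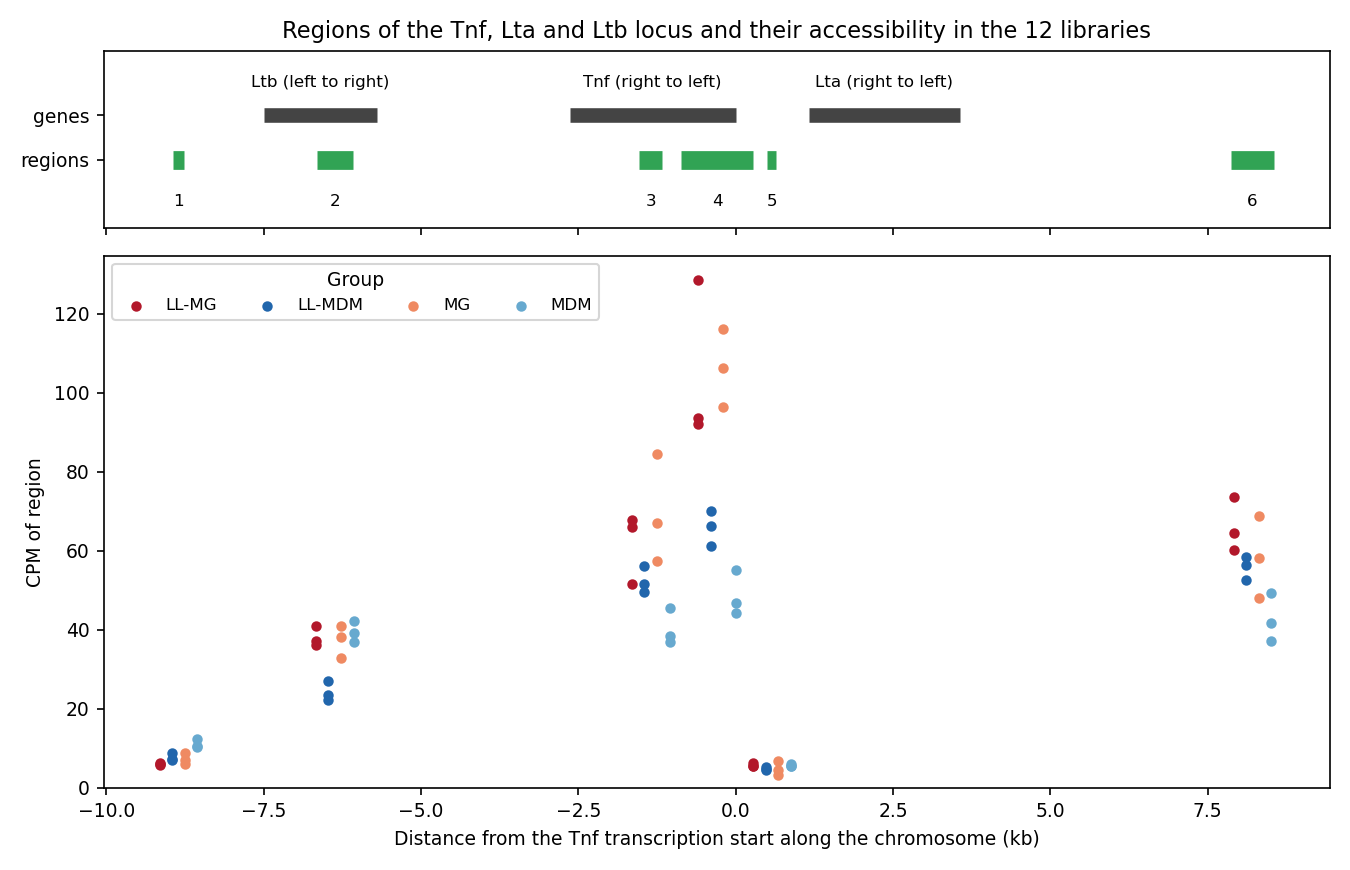
Upper panel: spans of Ltb, Tnf and Lta and the 6 regions of the locus by distance from the Tnf start (kb, along the chromosome). Lower panel: CPM of each region in the 12 libraries, drawn at the region's centre with the groups set side by side. Region 4, at the Tnf start, separates the microglial from the monocyte-derived libraries, and region 2, in Ltb, is lowest in LL-MDM.

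Nfkb1 encodes p105, the precursor of the p50 subunit, and has the most regions. Its locus sum passed the test in no comparison, although 22 of its 30 regions were called between MG and MDM, 14 higher and 8 lower in MG. Without MG 2 and MG 3, 27 of the 30 could be tested and 6 were called, 2 higher and 4 lower. Region 12, inside the gene (chr3:135612867-135613108), carries peak names from LL-MG and MG alone in the deposited table. It had 25.3, 27.3 and 27.9 CPM in LL-MG, 8.86, 11.1 and 7.53 in LL-MDM, 18.5, 15.1 and 18.0 in MG and 3.43, 4.07 and 3.08 in MDM. The 4 groups did not overlap and stood in the order LL-MG, MG, LL-MDM, MDM. MG exceeded MDM by 2.23 ± 0.20 (edgeR adjusted p = 9.13e-11) and LL-MG exceeded LL-MDM by 1.48 ± 0.22 (edgeR adjusted p = 5.53e-06), and both passed under every one of 21 alternatives. LL-MDM exceeded MDM by 1.40 ± 0.23 (edgeR adjusted p = 1.65e-05; 0.0535 after thinning to the smallest library). LL-MG exceeded MG by 0.66 ± 0.20 (edgeR adjusted p = 0.0258), which did not pass without LL-MG 1, 2 or 3, without MG 2, without MG 2 and MG 3 together, with the mouse block, or after thinning to the smallest library.

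Other regions inside Nfkb1 went the other way. Region 16 (chr3:135628558-135629195) had 20.8, 16.5 and 25.8 CPM in LL-MG, 25.7, 26.7 and 22.9 in LL-MDM, 19.6, 20.9 and 18.3 in MG and 40.0, 38.7 and 42.6 in MDM. The MDM libraries stood above all others. MG was lower than MDM by a log2 fold change of -1.03 ± 0.15 (edgeR adjusted p = 3.88e-07), with the same value without MG 2 and MG 3, and LL-MDM lower than MDM by -0.67 ± 0.15 (edgeR adjusted p = 6.80e-04; 0.117 with the mouse block). Region 27 was lower in both microglial groups, at -1.06 ± 0.25 in MG over MDM (-0.40 and not past the threshold without MG 2 and MG 3, nor past it after thinning) and -1.23 ± 0.33 in LL-MG over LL-MDM (not past it without LL-MG 1).

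Regions 3, 21 and 22 of Nfkb1 were high in single MG libraries. Region 22 (chr3:135661870-135661964) had 0.940 to 1.81 CPM in LL-MG, 3.34 in MG 1, 14.6 in MG 2 and 6.59 in MG 3, and 0.869 to 1.10 in MDM. Region 21 had 7.78, 26.2 and 9.51 CPM in the same MG libraries, against 2.77 to 3.94 in MDM, and region 3 had 1.85, 18.0 and 8.78, against 0.855 to 1.41. MG 2 was the highest library in all 3. Their log2 fold changes of MG over MDM, 3.16 ± 0.36 for region 22, 2.17 ± 0.35 for region 21 and 3.22 ± 0.53 for region 3, thus rest largely on MG 2 and MG 3. Without these libraries region 21 was at 1.19, and regions 3 and 22 no longer passed the filter on low counts. The marker levels of these libraries are given above, and the part of other cells in these regions was not tested. Region 30, at the upstream end of the gene (chr3:135691246-135692022), was higher in MG than in MDM by 0.70 ± 0.14 (edgeR adjusted p = 7.68e-05), with 64.9, 109 and 74.1 CPM in MG and 49.7, 52.8 and 53.0 in MDM, and did not pass without MG 2 and MG 3 (0.32, edgeR adjusted p = 0.105).

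**Figure D4:**
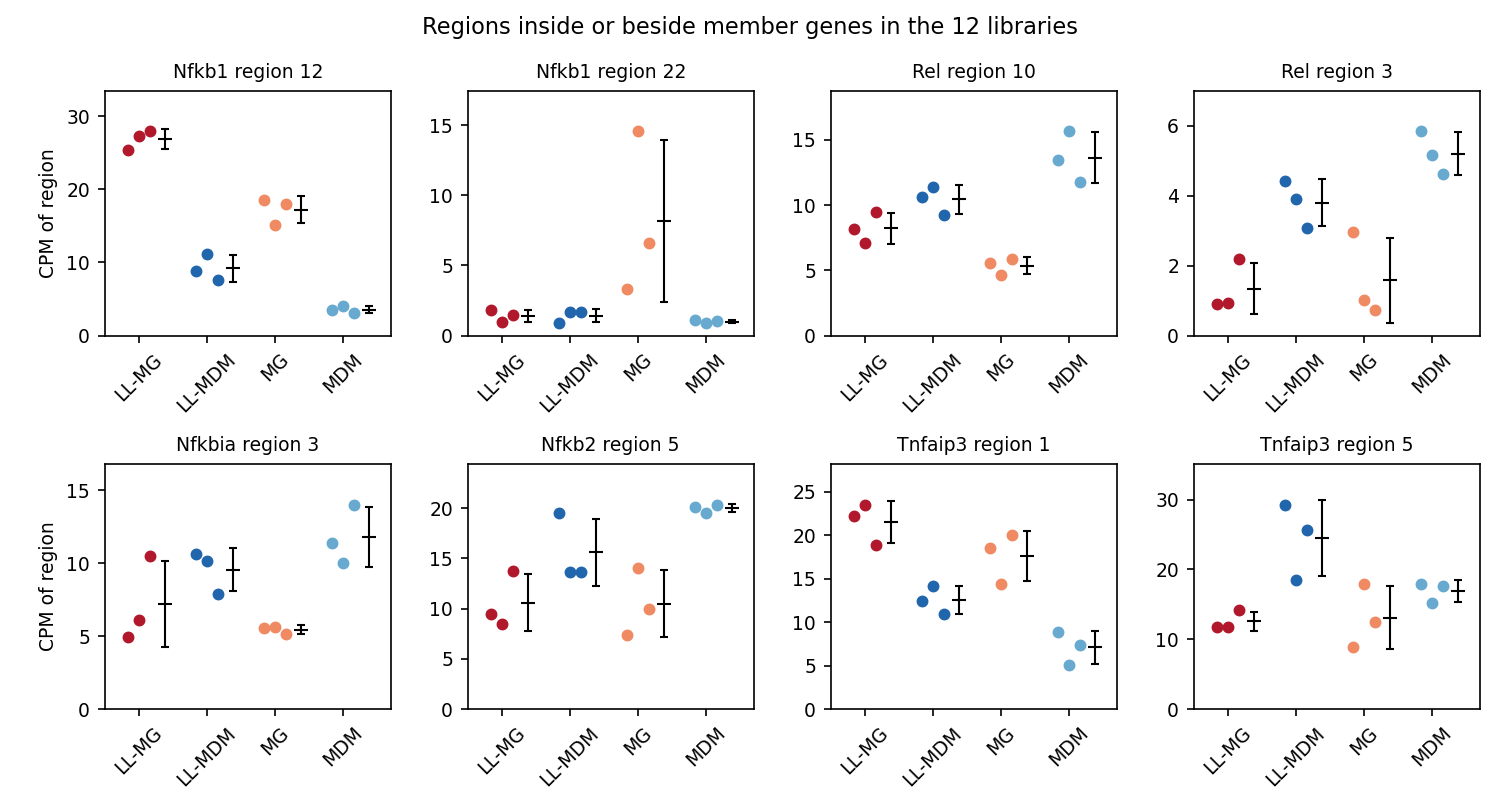
CPM (y axis, from 0) of 8 regions in the LL-MG, LL-MDM, MG and MDM libraries (points, 3 per group), with the mean ± SD in black. Nfkb1 region 12 and Tnfaip3 region 1 are high in both microglial groups, Rel regions 10 and 3, Nfkbia region 3 and Nfkb2 region 5 are highest in MDM, Nfkb1 region 22 is high in MG 2, and Tnfaip3 region 5 is highest in LL-MDM.

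Rel encodes c-Rel, the subunit best known from lymphocytes and inflammatory myeloid cells, and its locus was the only one of the 8 called lower in MG than in MDM. Its sum was 239, 227 and 230 CPM in LL-MG, 251, 258 and 224 in LL-MDM, 223, 241 and 232 in MG and 285, 274 and 287 in MDM. The MDM libraries stood above all 9 others. The log2 fold change was -0.28 ± 0.07 in MG over MDM (edgeR adjusted p = 0.00467), against -0.20 (edgeR adjusted p = 0.0529) with the gene span alone, and -0.21 ± 0.08 in LL-MDM over MDM (edgeR adjusted p = 0.0535). The region at the Rel start, region 13 (chr11:23770547-23771787), took no part in this: it had 182, 156 and 157 CPM in LL-MG, 171, 176 and 163 in LL-MDM, 163, 221 and 199 in MG and 170, 168 and 198 in MDM, and passed no test. It made up 71.3% of the locus's CPM in MG and 59.3% in MDM. The other 12 regions summed to 78.5 CPM in LL-MG, 93.5 in LL-MDM, 78.3 in MG and 123 in MDM, and 9 of them were called, every one lower in MG. Region 10, inside the gene (chr11:23762634-23763005), had 8.14, 7.05 and 9.44 CPM in LL-MG, 10.6, 11.4 and 9.25 in LL-MDM, 5.56, 4.63 and 5.85 in MG and 13.4, 15.6 and 11.8 in MDM. MG was lower than MDM there by a log2 fold change of -1.38 ± 0.22 (edgeR adjusted p = 2.70e-06), and -1.29 to -1.52 over 21 alternatives. Region 3, in the flank, was lower in MG than in MDM (-1.93 ± 0.36, edgeR adjusted p = 3.88e-05; -0.84 without MG 2 and MG 3) and in LL-MG than in LL-MDM (-1.39 ± 0.50, edgeR adjusted p = 0.043), the last not past the threshold under 13 of 20 alternatives, DESeq2 and limma-voom among them. Region 12 had 17.6, 19.3 and 21.0 CPM in LL-MG, 10.6, 19.6 and 13.7 in LL-MDM, 22.6, 23.3 and 21.0 in MG and 28.0, 24.0 and 26.0 in MDM, and was lower in LL-MDM than in MDM (-0.68 ± 0.17, edgeR adjusted p = 0.00254; 0.0534 with the mouse block). Of the Rel regions, 5 also lie within 5 kb of the neighbouring gene Pus10, though none overlaps its span. Dendritic cells also use c-Rel. Over 8 dendritic cell marker genes the summed level was 592 to 627 CPM in LL-MG and 522 to 556 in LL-MDM. It was 524 to 596 CPM in MG and 725 to 786 in MDM. These genes did not move together: 4 were called lower and 1 higher in MG than in MDM. Flt3 had 55.2 to 72.1 CPM in MG and 175 to 186 in MDM, and Ccr7 had 10.5 to 14.3 and 70.9 to 87.3. Itgae had 107 to 110 CPM in MG and 82.3 to 90.2 in MDM. The part of such cells in the Rel regions was not tested.

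Regions that the authors called in MDM alone made up 27 of the 75, or 36.0%, against 37.8% of all regions. Of these 27, edgeR called 18 between MG and MDM (66.7%), 2 higher (7.41%) and 16 lower (59.3%) in MG, against 52.5% of all 15936 such regions tested, 5.30% higher and 47.2% lower. Because the region set was built from these same libraries, the direction of those regions is not independent of how they were found, and the Rel locus is rich in them.

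Nfkb2, which encodes p100, the precursor of p52 in the alternative pathway, and Relb, its usual partner, had locus sums that passed the test in no comparison. The start region of Nfkb2, region 2 (chr19:46304239-46305852), holds 3 of the kappaB matches shown above and made up 72.9% to 76.2% of its locus's CPM. It had 237, 221 and 223 CPM in LL-MG, 209, 199 and 198 in LL-MDM, 194, 272 and 213 in MG and 190, 173 and 225 in MDM. The groups overlapped, except that the LL-MG libraries lay above the LL-MDM ones by less than the test's threshold (0.17 ± 0.12, edgeR adjusted p = 0.357). Region 5 lies downstream of the gene and overlaps the span of the neighbouring gene Psd (chr19:46314756-46315195). It had 9.50, 8.46 and 13.8 CPM in LL-MG and 19.5, 13.6 and 13.7 in LL-MDM. The level was 7.41, 14.1 and 10.0 CPM in MG and 20.1, 19.6 and 20.3 in MDM. MG was lower than MDM by a log2 fold change of -0.87 ± 0.20 (edgeR adjusted p = 4.41e-04), and of -1.43 without MG 2 and MG 3. Of the 4 Relb regions, only the small region 3 inside the gene passed any of these tests: it had 5.43, 5.64 and 6.53 CPM in LL-MG and 2.97, 2.40 and 1.46 in MG (1.40 ± 0.37, edgeR adjusted p = 0.014), which did not pass without LL-MG 3, without MG 3, without MG 2 and MG 3, or with the mouse block. Regions shared with Clasrp and Clptm1 carry 93.8% of the counts at Relb.

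Rela encodes p65, the main activating subunit of the classical pathway. Its locus sum passed the test in no comparison. The start region, region 1 (chr19:5636817-5638049), had 73.3, 62.5 and 70.0 CPM in LL-MG, 67.3, 71.1 and 74.0 in LL-MDM, 77.1, 111 and 90.5 in MG and 76.0, 73.7 and 82.4 in MDM. Only MG 2 and MG 3 stood above the other libraries. LL-MG was lower than MG by a log2 fold change of -0.45 ± 0.13 (edgeR adjusted p = 0.022), and MG higher than MDM by 0.28 ± 0.12 (edgeR adjusted p = 0.0454), and neither passed without MG 2 and MG 3. The difference between LL-MG and MG also missed the threshold without any 1 LL-MG library, without MG 2, with loess offsets, thinning or the mouse block. That between MG and MDM missed it under 16 further alternatives of 21, among them RLE, total-count and loess scaling and DESeq2. Downstream, region 2 was higher in MG than in MDM (0.35 ± 0.13, edgeR adjusted p = 0.0244; not past the threshold under 9 of 21 alternatives, DESeq2, loess offsets and the fits without MG 2, MG 3, MDM 1 or MDM 2 among them), and region 4 was higher in LL-MDM than in MDM (0.71 ± 0.19, edgeR adjusted p = 0.00412; not past it without LL-MDM 2, after thinning or with the mouse block), with 15.9, 18.2 and 16.1 CPM against 9.79, 11.0 and 10.4. These downstream regions also lie in the flank of Sipa1, but outside its span.

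Of the inhibitors, Nfkbia had locus sums that overlapped in all groups, and its start region, region 2 (chr12:55491706-55492957), made up 76.7% to 81.9% of them. That region had 220, 191 and 195 CPM in LL-MG, 219, 181 and 201 in LL-MDM, 193, 261 and 212 in MG and 183, 168 and 224 in MDM. The spread within MG and within MDM was wider than any difference between groups, and the log2 fold changes, from -0.14 to 0.22, passed no test. Region 3, just upstream of the start (chr12:55493007-55493111), had 4.98, 6.11 and 10.5 CPM in LL-MG, 10.6, 10.2 and 7.88 in LL-MDM, 5.56, 5.66 and 5.12 in MG and 11.4, 10.0 and 14.0 in MDM. MG was lower than MDM by a log2 fold change of -1.08 ± 0.24 (edgeR adjusted p = 2.71e-04), and of -1.04 without MG 2 and MG 3. Region 1, downstream of the gene, was at 29.7, 62.9 and 48.3 CPM in MG; it was called higher in MG than in MDM (0.42 ± 0.16) and lower in LL-MG than in MG (-0.66 ± 0.19), and both turned sign without MG 2 and MG 3 (-0.28 and 0.04).

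Tnfaip3 encodes A20, the ubiquitin-editing enzyme that shuts signalling down. Its locus sum passed the test in no comparison, while single regions did. Region 1, in the flank beyond the 3' end of the gene (chr10:18996449-18996703), had 22.2, 23.5 and 18.9 CPM in LL-MG, 12.4, 14.2 and 11.0 in LL-MDM, 18.5, 14.4 and 20.0 in MG and 8.91, 5.11 and 7.35 in MDM. Its order was that of the Tnf start: the microglial groups on top and overlapping, then LL-MDM, then MDM. MG exceeded MDM by 1.31 ± 0.21 (edgeR adjusted p = 2.77e-06), LL-MG exceeded LL-MDM by 0.74 ± 0.23 (edgeR adjusted p = 0.0196), and LL-MDM exceeded MDM by 0.86 ± 0.22 (edgeR adjusted p = 0.00326). The first stood at 1.41 without MG 2 and MG 3. The second was not past the threshold without LL-MG 1, LL-MG 2 or LL-MDM 3 or after thinning, and the third without LL-MDM 2 or MDM 2, after thinning or with the mouse block. Region 5, inside the gene (chr10:19008683-19008931), had 11.8, 11.8 and 14.2 CPM in LL-MG and 29.2, 18.5 and 25.7 in LL-MDM, against 8.90, 17.8 and 12.4 in MG and 18.0, 15.2 and 17.6 in MDM. LL-MG was lower than LL-MDM by a log2 fold change of -0.87 ± 0.24 (edgeR adjusted p = 0.00733; 0.0533 without LL-MDM 3). The start region, region 8 (chr10:19014497-19015852), had 113, 98.3 and 90.4 CPM in LL-MG and 124, 166 and 137 in MG, and was lower in LL-MG by -0.51 ± 0.13 (edgeR adjusted p = 0.00863), which did not pass without LL-MG 2, LL-MG 3 or MG 2, without MG 2 and MG 3, or with the mouse block.

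Of the 8 regions at listed promoters of member genes, the Tnf start lay farthest from the middle of all promoters in MG over MDM. All promoters here means regions overlapping a promoter window of any gene, a rule by which 11 member regions count. The median log2 fold change of all 10518 promoter regions in MG over MDM was 0.21, and promoter regions took 36.9% to 38.8% of the counts in MG and 33.9% to 35.9% in MDM. The start regions of Nfkb2 (0.22), Nfkbia (0.22), Tnfaip3 (0.24), Rela (0.28) and Rel (0.13) lay close to that median. Without MG 2 and MG 3 those of Nfkb2 (-0.00760), Rel (-0.13) and Rela changed sign. In LL-MG over MG the median was -0.20, and the lower values of the Rela start (-0.45) and the Tnfaip3 start (-0.51) stand beside it. A second start region of Nfkb2, region 3, was higher in MG than in MDM (0.43 ± 0.15; -0.05 without MG 2 and MG 3), and region 7, at a start inside Tnfaip3, was lower in LL-MDM than in MDM (-0.84 ± 0.22, edgeR adjusted p = 0.0033; -0.34 with the mouse block); 98.0% of promoter regions had a higher value than Tnfaip3 region 7 in that comparison.

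**Figure D5:**
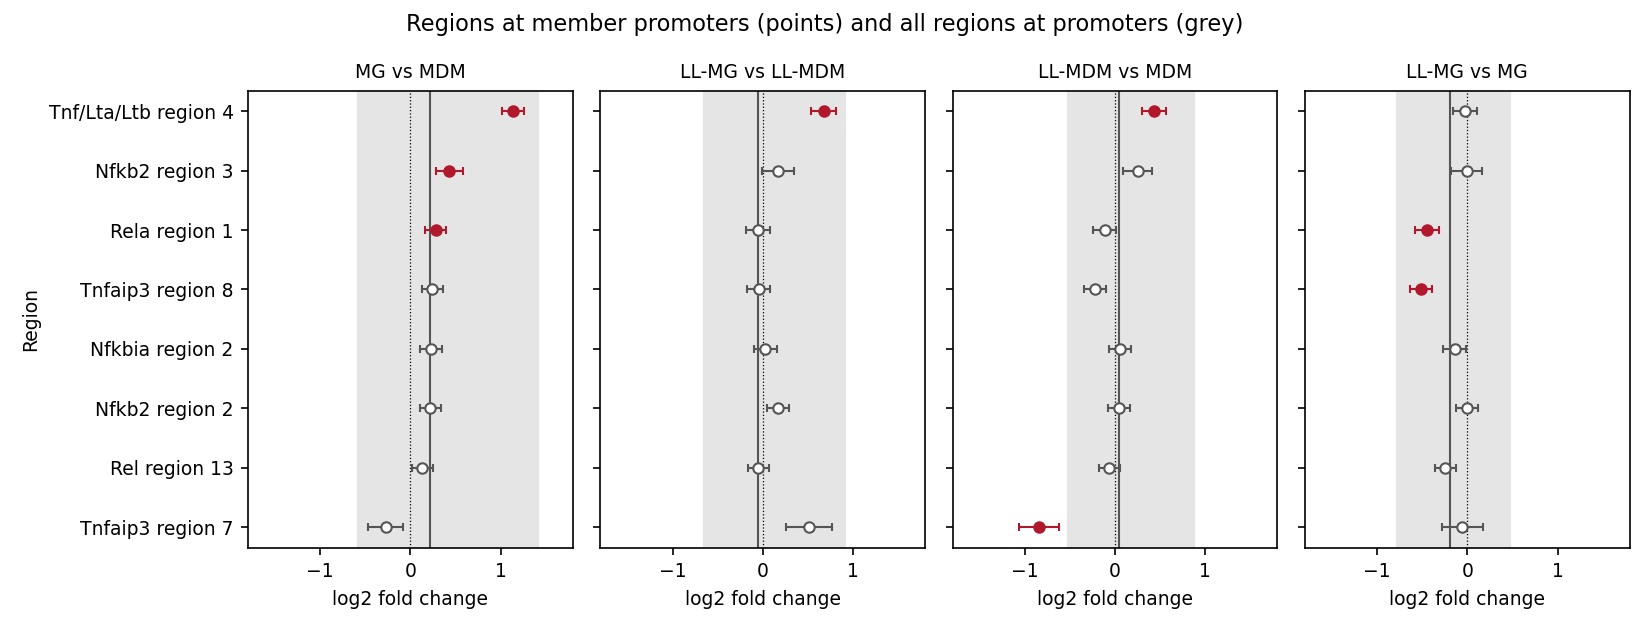
Log2 fold change (x axis) of the 8 regions overlapping a listed promoter of a member gene in 4 comparisons, the group named first over the second. Points are ± SE and filled where edgeR's adjusted p was under 0.05. Nfkb1 and Relb had no listed promoter. Grey spans the 5th to 95th percentile of 10518 promoter regions and the grey line is their median, 0.21 in MG over MDM. The Tnf start (Tnf/Lta/Ltb region 4) is the highest of the 8 in the first 3 panels.

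The 2 lineages did not change alike with lipid load at 11 of the 75 regions (10.9% of all regions; 5 higher in microglia against 4.56%, 6 lower against 6.33%), 8 of them at Nfkb1, 2 at Tnf/Lta/Ltb and 1 at Rel. At Tnf/Lta/Ltb region 2 the change in microglia exceeded that in monocyte-derived cells by 0.67 ± 0.20 (edgeR adjusted p = 0.0273), and at Rel region 10 by 1.03 ± 0.34 (edgeR adjusted p = 0.0449). The first missed the threshold under 6 of 21 alternatives and the second under 16. Without MG 2 and MG 3, 1 of the 11 passed, with 6.04% of all regions called in that fit. The 11 became 2 to 7 without any 1 LL-MG or LL-MDM library, MG 2, MG 3, MDM 1 or MDM 2, and 18 without MG 1. At no locus sum did this difference pass (0 of 8, against 8.72% of all gene loci, with 0 at an unadjusted p under 0.05; 0 by DESeq2 and 0 by limma-voom).

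The comparisons of lipid load were also fitted with the titles' mouse numbers as a block, in which lipid load varies within mouse 546 alone. If the titles follow the library numbers instead, this block sets libraries to the wrong mice. A value that passed or missed the threshold with it therefore does not settle the part of the mouse. In that fit edgeR called 5 member regions in LL-MDM against MDM (5.06% of all regions) and 0 in LL-MG against MG, where it called 0 of all 77737, so this count says nothing about the members. The Tnf start (0.66, edgeR adjusted p = 0.0451) and Nfkb1 region 12 (1.32, edgeR adjusted p = 0.0388) stayed higher in LL-MDM than in MDM. The lineage comparisons kept 42 regions in MG against MDM and 6 in LL-MG against LL-MDM, and 6 were called for the difference in the change with lipid load.

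Counted by locus, edgeR called 2 of 8 between MG and MDM (Tnf/Lta/Ltb and Rel; 41% of 15552 gene loci), 1 of 8 between LL-MG and LL-MDM (20.3%), 0 in LL-MDM against MDM (23.8%) and 0 in LL-MG against MG (18.3%). At an unadjusted p under 0.05 there was 1 locus in LL-MDM against MDM and 1 in LL-MG against MG; DESeq2 and limma-voom each called 1 in LL-MDM against MDM, Rel, and 0 in LL-MG against MG.

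The wider pathway was read from 5 lists with 95 genes, of which 92 had a locus that could be tested. Between MG and MDM 43 were called, 11 higher and 32 lower in MG, against 19.8% of all loci higher and 21.2% lower. The fit without MG 2 and MG 3 leaves 1 MG library, so its counts are not set beside these. None of the receptors, adaptors and kinases called was higher: 3 of 8 receptors and 10 of 26 adaptors and kinases were lower in MG. The costimulatory receptor Cd40 had 59.8, 28.1 and 32.6 CPM in MG and 128, 124 and 130 in MDM (-1.75 ± 0.21, edgeR adjusted p = 3.86e-05), and the interleukin-1 receptor Il1r1 73.1, 67.2 and 83.2 against 136, 129 and 145 (-0.87 ± 0.08). Birc3, a ubiquitin ligase of the TNF receptor complex, was lower at -0.73 ± 0.08 and Malt1, a paracaspase of the CARD pathway, at -0.75 ± 0.09. Of 18 inhibitor and feedback genes 7 were called, 6 of them lower, led by the A20-binding protein gene Tnip3 with 46.6, 38.3 and 54.9 CPM in MG and 164, 141 and 142 in MDM (-1.70 ± 0.11, edgeR adjusted p = 3.37e-10). Of 11 other TNF superfamily ligands 8 were called, 6 lower, among them Tnfsf4, the OX40 ligand (-2.50 ± 0.19), and Fasl (-2.35 ± 0.28). The 29 NF-kB target genes split, 8 higher and 7 lower: the chemokine gene Ccl4 had 263, 413 and 316 CPM in MG and 125, 124 and 137 in MDM (1.37 ± 0.12, with 46.0% of its counts shared with other genes), and Tnfsf9, the 4-1BB ligand gene, was lower (-1.18 ± 0.12). Without MG 2 and MG 3 these 9 named genes kept their direction and passed the test, with Cd40 at -1.09, Fasl at -3.06, Tnfsf9 at -0.85 and Ccl4 at 1.03.

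Between LL-MG and LL-MDM 25 of the 92 pathway loci were called, 15 higher and 10 lower, against 12% and 8.31% of all loci. The target genes supplied 9 of the 15, such as Ccl4 (0.74 ± 0.14) and Cflar, an inhibitor of caspase-8 (0.40 ± 0.08), and 1 was lower, the neutrophil chemokine gene Cxcl1, with 15.3, 9.59 and 12.1 CPM in LL-MG and 36.9, 31.9 and 43.4 in LL-MDM (-1.58 ± 0.20, edgeR adjusted p = 1.09e-05). In LL-MDM against MDM 28 were called, 11 higher and 17 lower, against 11.7% and 12.2%: Cxcl1 was higher (1.24 ± 0.17, with 15.4, 14.5 and 17.4 CPM in MDM), as was Plau, the urokinase gene (0.76 ± 0.12), while Tnip3 (-0.98 ± 0.11), Tnfsf9 (-1.25 ± 0.13), Ikbkb, the IkB kinase beta gene (-0.66 ± 0.13), and Traf1 (-0.71 ± 0.13) were lower. With the mouse block 5 of the 92 were called in that comparison (3.13% of all loci); Cxcl1, Plau, Tnip3 and Tnfsf9 passed, and Ikbkb (-0.57) and Traf1 (-0.61) did not. In LL-MG against MG 30 were called, 23 higher and 7 lower, against 10.3% and 7.98%; the kinase gene Ikbke was at 0.96 ± 0.17, and at 0.52 and not past the threshold without MG 2 and MG 3. In that fit 0 of the 92 were called, and 16 of all 15590 loci (0.103%); with the mouse block 0 of all loci were called. Neither count speaks to the pathway genes in particular. The lineages differed in their change with lipid load at 20 loci. Of these, 15 had the higher value in microglia and 5 the lower, against 5.94% and 2.78% of all loci. The count fell without MG 2 and MG 3, which leaves 1 MG library, as did the share of all loci called. Single libraries moved these counts too: the 25 became 15 or 16 without LL-MG 1, LL-MG 2, LL-MDM 2 or LL-MDM 3; the 28 became 15 without LL-MDM 2 and 44 without MG 1; the 30 became 7 to 16 without any 1 LL-MG library, MG 2 or MG 3 and 50 without MG 1; and the 20 became 9 to 12 without any 1 LL-MG library, LL-MDM 2, LL-MDM 3, MG 3 or MDM 1 and 39 without MG 1.

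Over the 12 libraries, the gene loci whose log2 CPM followed that of Tnf/Lta/Ltb most closely were Mid1ip1 and Ttc13 (Pearson's r = 0.963 each), Tmem140 (0.961), Gm35751 (0.959) and Ppp1r15a (0.958), out of 15548. These points share their libraries and the 4 groups. The other members ran from -0.665 at Rel and 0.08 at Nfkb1 to 0.530 at Nfkb2, so no NF-kB subunit locus followed the cytokine locus closely.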

How the data were processed

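ATAC-seq counts per region in 12 libraries were analysed, 3 in each of LL-MG, LL-MDM, MG and MDM. The deposited table holds the authors' whole-number read counts over 117835 regions of mm10, merged from peaks whose names record the groups they were called in. BWA 0.7.17-r1188, SAMtools 1.10, Picard 2.12.0 and deepTools 3.5.1 are named by the submitters' processing notes; for the peak caller, duplicate handling and Tn5 shift nothing is given in the sources used here, and each would change peak edges and counts. All 12 count columns were mapped by library name, with 0 left over. Counts were scaled by TMM, filtered with filterByExpr and tested with edgeR 4.0.16 (quasi-likelihood, 4 groups in 1 model, Benjamini-Hochberg over all features) in R 4.3.3, for 77737 regions and for 15552 gene loci (counts summed over a gene's span and 5 kb either side). Locus sums were scaled separately from regions. The edgeR fit of regions was tried on simulated counts for MG against MDM. These counts gave every library the same spread, so they did not test the wider spread within MG. Replicate pairs differed by more than sampling noise, with a chi-square per degree of freedom of 1.12 to 1.93 outside MG and 2.62 to 5.91 within it.

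Gene spans and promoters came from RefSeq (GRCm38.p6). Named regions are, at each locus, the one with the highest mean CPM and, in each comparison, the called one with the smallest p; named pathway genes are up to 3 called loci of smallest p per list and comparison. Other regions were named after their values were seen. The members, lists and tests were chosen with earlier results of these data known. Alternatives were RLE, total-count and loess scaling, no filter, DESeq2 1.42.0, limma-voom (limma 3.58.1), each library left out, MG 2 and MG 3 left out, thinning to the smallest library, the titles' groups, other flanks and, added after seeing the data, the titles' mouse numbers as a block. Replicate numbers follow accession order, run with the library numbers and were not used as a pairing. The mouse numbers come from titles that conflict with the library names.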

Additional observations from a re-analysis of the deposited data

Results flagged for a closer look

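At 11 regions the change with lipid load in microglia (LL-MG over MG) minus that in monocyte-derived macrophages (LL-MDM over MDM) passed edgeR's test of the difference itself (adjusted p under 0.05). At Nfkb1, the p50 gene, the difference was -3.33 on the log2 scale at region 22, -2.71 at region 21, -1.18 at region 10, -1.17 at region 28 and -0.76 at region 30, all regions with more CPM in MG 2 than in MG 1, and it was 1.12 at region 17, 0.95 at region 4 and 0.78 at region 16, which were highest in MDM. At Rel, the c-Rel gene, it was 1.03 at region 10. At Tnf/Lta/Ltb it was 0.67 at region 2 in Ltb, which was lowest in LL-MDM, and -0.60 at region 3 in Tnf, which was lowest in MDM. Without MG 2 and MG 3, 1 of the 11 passed, 9 of the 10 that could be tested kept their direction, Nfkb1 region 28 turned to 0.0117, and region 22 could not be tested. Region 21 passed under all 21 alternatives and region 22 under all but 1 of 17; the other 9 missed the threshold under 4 to 17 of 21. The part of the differences between the MG libraries in these values was not tested. Groups of 3 libraries were not examined for single outlying values.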

How the results depend on the processing

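The values least sure are those that rest on MG or on the shallow lipid-laden libraries. Counts of calls are given as the number of the 75 member regions, of the 8 member loci or of the 92 pathway loci. The shares of all regions and of all loci called also changed from fit to fit, so a changed count is no result about the members. With MG 2 and MG 3 left out together, which leaves 1 MG library assumed to vary like the other groups and 72 testable member regions, 17 regions were called in MG against MDM (45 with all libraries), 13 in LL-MG against LL-MDM (8), 0 in LL-MG against MG (10) and 1 for the interaction (11); 1 locus in LL-MDM against MDM (0); and 42 pathway loci in LL-MG against LL-MDM (25), 49 in LL-MDM against MDM (28), 0 in LL-MG against MG (30) and 9 for the interaction (20). Thinned to the smallest library, regions fell to 16 in MG against MDM, where 31.7% of all regions were called. They fell to 4 in LL-MG against LL-MDM (15.7%) and 6 in LL-MDM against MDM (14.2%). In LL-MG against MG they fell to 2 (7.11%) and for the interaction to 3 (3.86%). Pathway loci fell to 18 in LL-MDM against MDM (10.9% of all loci), 18 in LL-MG against MG (8.47%) and 11 for the interaction (4.08%). Here fewer counts enter each test, and 50 of the 75 regions and 88 of the 92 pathway loci could be tested.

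With the titles' groups, regions called were 0 in MG against MDM, 0 in LL-MG against LL-MDM, 9 in LL-MDM against MDM, 4 in LL-MG against MG and 0 for the interaction. Loci called were then 0, 0, 1, 1 and 0, and pathway loci 0, 0, 10, 9 and 0, in the same order of comparisons. In that order the fit called 0%, 0%, 17.7%, 10.6% and 0% of all regions, and 0%, 0%, 12.9%, 7.36% and 0% of all gene loci. For regions in LL-MG against MG, DESeq2 and limma-voom each called 6; for the interaction DESeq2 called 5, and edgeR without a filter 6. For loci in LL-MDM against MDM, total-count scaling, loess offsets, DESeq2 and limma-voom called 1 each. A 50 kb flank gave 2 loci in LL-MG against LL-MDM, 2 in LL-MDM against MDM and 1 for the interaction. The gene span alone gave 1 locus in MG against MDM, 1 in LL-MG against MG and 12 pathway loci for the interaction. The cause of these changes was not tested.

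Leaving out each library in turn gave 31 to 48 regions in MG against MDM, 4 to 9 in LL-MG against LL-MDM, 8 to 23 in LL-MDM against MDM, 2 to 20 in LL-MG against MG and 2 to 18 for the interaction. Loci ran from 2 to 4, 1 to 1, 0 to 1, 0 to 0 and 0 to 0 in that order, and pathway loci from 41 to 52, 15 to 35, 15 to 44, 7 to 50 and 9 to 39.

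With the titles' mouse numbers as a replicate block, an alternative added after seeing the data, regions called were 42 in MG against MDM, 6 in LL-MG against LL-MDM, 5 in LL-MDM against MDM, 0 in LL-MG against MG and 6 for the interaction; pathway loci were 43, 19, 5, 0 and 11 in the same order, and loci 2, 1, 0, 0 and 0. In that block only mouse 546 holds libraries with and without lipid load. The titles conflict with the library names, so the block may set libraries to the wrong mice. The numbers given to replicates here run with the library numbers and were not used as a pairing. If the titles belong to the library numbers, libraries with the same replicate number share a mouse.

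Among the values named in the text, the signs that turned without MG 2 and MG 3 were Nfkbia region 1 (-0.28 in MG over MDM and 0.0380 in LL-MG over MG), Rela region 1 (-0.00061), Rel region 13 (-0.13), Nfkb2 region 2 (-0.00760) and Nfkb2 region 3 (-0.0531), all in MG over MDM, and Nfkb1 region 28 for the interaction (0.0117). With loess offsets Rel region 13 (-0.12), Nfkbia region 2 (-0.0314) and Nfkb2 region 2 (-0.0457) turned in MG over MDM. The uncalled Tnf start in LL-MG over MG stood at 0.0108 with RLE, 0.0710 with total counts, 0.18 with loess offsets, 0.0114 with DESeq2, 0.0036 thinned and 0.15 with the mouse block, and ran from -0.16 to 0.13 over single libraries left out. The uncalled Tnf/Lta/Ltb sum turned with a 50 kb flank (-0.0517 in LL-MDM over MDM and -0.0369 in LL-MG over MG). The other 34 locus values were uncalled and at most 0.20 in size on the log2 scale; of their 816 values under alternatives 82 changed sign, none beyond 0.17 in size, and 6 passed the test. The largest shift of the median region under another scaling was 0.107, with total counts in LL-MG over MG.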

Other observations

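Markers of other cell types gave counts in all groups. Summed over 7 B cell genes, accessibility was 154 to 163 CPM in LL-MG, 137 to 155 in LL-MDM, 120 to 155 in MG and 146 to 151 in MDM. Over 6 neutrophil genes it was 103 to 117 CPM in LL-MG, 125 to 153 in LL-MDM, 113 to 133 in MG and 135 to 143 in MDM. Over 7 oligodendrocyte genes it was 254 to 267 CPM in LL-MG, 263 to 288 in LL-MDM, 237 to 255 in MG and 316 to 333 in MDM, most of it at Mbp, which ran from 214 CPM in MG 3 to 313 in MDM 1. Over 5 astrocyte genes it was 218 to 234 CPM in LL-MG, 153 to 172 in LL-MDM, 142 to 187 in MG and 152 to 169 in MDM.

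Of the inflammatory chemokine genes on the target list, Ccl4 and Cxcl1 stood in different groups. Ccl4 had 246, 243 and 212 CPM in LL-MG, 141, 149 and 127 in LL-MDM, 263, 413 and 316 in MG and 125, 124 and 137 in MDM, so both microglial groups lay above both monocyte-derived ones. Cxcl1 had 15.3, 9.59 and 12.1 CPM in LL-MG, 36.9, 31.9 and 43.4 in LL-MDM, 9.52, 14.1 and 11.3 in MG and 15.4, 14.5 and 17.4 in MDM, so LL-MDM alone stood out. Plau, the urokinase gene, had 142, 131 and 133 CPM in LL-MG, 114, 106 and 90.3 in LL-MDM, 113, 73.6 and 101 in MG and 60.0, 56.9 and 65.2 in MDM, the highest in LL-MG and the lowest in MDM.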
